A study of Mus musculus with 6 samples.

Results

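Il6, its relatives Lif and Il11, the receptor subunits Il6st, Il6ra and Osmr, the signalling genes Stat3 and Socs3, and the cytokines Csf1 and Il33 were followed in beta-adrenergically stimulated white adipocytes after deletion of Dicer1 was induced and in controls. The members were chosen by name, from a list of 10 genes. Of these, 8 had a row in the table of 13734 genes and 7 passed the filter on low values, which 10054 genes passed in all. Il11 had too few reads for the test, and Il6ra and Csf1 are not analysed here. The cells came from 1 immortalized mouse line of subcutaneous white preadipocytes that is homozygous for a floxed Dicer1 allele and carries Cre-ERT2, a Cre recombinase that 4-hydroxytamoxifen activates. The DICER_KO group (3 libraries) received 10 µM 4-hydroxytamoxifen for 48 h from day 6 of differentiation, to delete the gene for the RNase that releases mature microRNAs. The control group (3 libraries) received ethanol in its place. Its titles call it WT control, while its genotype field gives the same floxed alleles and Cre-ERT2. All 6 samples then received isoproterenol, a beta-adrenergic agonist, at 10 µM for 6 h, so no unstimulated cells enter any comparison.

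Interleukin 6 and its relatives bind specific receptor subunits that signal through a shared subunit, gp130, encoded by Il6st. Janus kinases bound to these receptors phosphorylate STAT3, which enters the nucleus and activates genes that include Socs3, whose product in turn blocks the receptor. In fat, adipocytes, their precursors and resident immune cells all release such cytokines, and beta-adrenergic stimulation is a known trigger of Il6 expression in adipocytes.

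The promoters of Il6, Lif and Socs3 are shown because these 3 members had the largest differences towards lower levels among those tested. Each window holds 250 bases before and 50 bases after a RefSeq start site (GRCm38.p6), 5′ to 3′ on the gene's strand. Capitals mark matches, on either strand, to 4 motifs: NF-kappaB (GGG, then 2 bases of any kind, then TTTCC), STAT (TTCNNNGAA), AP-1 (TGANTCA) and the core of the cAMP response element (TGACGT). The windows lie at chr5:30012864-30013163 on the plus strand (Il6), chr11:4257318-4257617 on the plus strand (Lif) and chr11:117969317-117969616 on the minus strand (Socs3).
Il6: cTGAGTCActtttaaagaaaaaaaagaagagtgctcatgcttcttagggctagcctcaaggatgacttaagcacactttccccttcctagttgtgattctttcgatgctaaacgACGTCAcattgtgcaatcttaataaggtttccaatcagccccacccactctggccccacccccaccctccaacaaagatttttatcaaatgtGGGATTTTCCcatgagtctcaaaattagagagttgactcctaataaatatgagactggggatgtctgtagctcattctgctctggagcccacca
Lif: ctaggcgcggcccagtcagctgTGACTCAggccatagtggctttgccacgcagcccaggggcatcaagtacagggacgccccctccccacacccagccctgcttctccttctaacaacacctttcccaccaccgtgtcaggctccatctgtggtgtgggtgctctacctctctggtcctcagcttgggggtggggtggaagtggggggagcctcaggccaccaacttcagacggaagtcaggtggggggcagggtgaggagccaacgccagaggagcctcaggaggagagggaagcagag
Socs3: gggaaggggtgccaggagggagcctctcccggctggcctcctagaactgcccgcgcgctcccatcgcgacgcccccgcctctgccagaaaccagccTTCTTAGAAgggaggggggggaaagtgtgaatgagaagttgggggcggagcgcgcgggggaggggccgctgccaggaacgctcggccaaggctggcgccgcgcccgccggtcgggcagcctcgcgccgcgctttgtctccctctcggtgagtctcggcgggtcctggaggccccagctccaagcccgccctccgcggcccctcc
The Il6 window held an NF-kappaB match at bases -44 to -35 from the start site, a cAMP response core on the reverse strand at -136 to -131 and an AP-1 match at -249 to -243. The Lif window held 1 AP-1 match, at -228 to -222, and the Socs3 window held 1 STAT match, at -154 to -146. No matches overlapped each other. The Socs3 start site of this window lies inside the annotated span of the gene, which reaches further upstream. Among 32851 promoters of the same length, 1.63% held the NF-kappaB letters, 8.3% the STAT letters, 7.81% the AP-1 letters and 7.51% the cAMP response core. Among the other tested members, the Osmr window held an AP-1 match at bases 4 to 10, and none of the 4 motifs was found in the Il6st, Stat3 and Il33 windows. These matches are of letters only, and binding was not measured.

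Mature microRNAs are what Dicer1 makes, and they pair with messages mainly through bases 2 to 8, the seed. The 3′ UTRs of the members were searched for perfect matches to the seeds of 16 microRNA families, and 2 of the mature sequences are shown with the seed in capitals.
mmu-miR-223-3p: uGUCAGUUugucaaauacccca
mmu-miR-30a-5p: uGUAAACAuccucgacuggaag
The matching stretches of the Il6 and Socs3 3′ UTRs follow, with the bases complementary to the seed in capitals. The Il6 site lies at chr5:30019633-30019655 on the plus strand and the Socs3 site at chr11:117966285-117966307 on the minus strand (GRCm38).
Il6 site: ttgttctctacgaagAACTGACa
Socs3 site: ctctgttttgaataaTGTTTACa
The 427-base 3′ UTR of Il6 held 1 match in all, to the seed of miR-223. Socs3 held 3 matches in 1474 bases (miR-30, miR-19 and miR-203), and Il33 held 2 in 1677 bases (miR-21 and miR-203). Lif held 8 matches from 6 families in 3180 bases, Osmr 6 in 1794 bases, Stat3 6 in 1895 bases and Il6st 10 in 5641 bases. The Il6st 3′ UTR used runs past the end of the gene span given below (112506860), and some of its matches lie beyond that end. The median 3′ UTR of the 9435 tested genes with one was 1053 bases. By comparison, 8.61% of those genes held a miR-223 match and 15.6% a miR-30 match. The libraries hold polyadenylated RNA, so the level of each mature microRNA is not known, and a match says nothing about repression in these cells.

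The table held 13569034 to 30268077 reads per library on its genes, with the most in DICER_KO replicate 3. Dicer1, the gene targeted, fell from 6.12 to 5.46 on the log2 CPM scale (difference -0.66, limma adjusted p = 0.0150), without overlap between the groups. Its mean level in DICER_KO was still 0.633 times that of the controls. The call was lost when any control, DICER_KO replicate 1 or DICER_KO replicate 2 was left out (adjusted p 0.0568 to 0.147), while the difference stayed between -0.68 and -0.64. DICER_KO replicate 3 stood apart from the other DICER_KO libraries in mature adipocyte markers. The summed level of 20 such markers was 8768 to 10727 CPM in the controls, 14263 and 14126 CPM in DICER_KO replicates 1 and 2, and 4448 CPM in replicate 3. Each result on the members is therefore given with and without that library. The labels do not say whether replicate cultures were grown separately, so each p-value reflects only how far these libraries varied, which may be technical. The drug and the deletion cannot be told apart, since no cells without the floxed allele received 4-hydroxytamoxifen.

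With all 6 libraries, 0 of the 7 tested members passed the test (limma with an intensity trend, Benjamini-Hochberg adjusted p under 0.05), and 4 had an unadjusted p under 0.05, as did 1593 of the 10054 genes tested. Limma-voom on read numbers recovered from the values also called 0. Over all genes tested, 0.288% were called lower and 0.149% higher in DICER_KO. Once DICER_KO replicate 3 was left out, Il6, Lif and Socs3 fell and Il33 rose, against 7.22% of all genes called lower and 12.5% called higher. In 5 of the 7 members (Il6, Lif, Il6st, Osmr and Socs3) every DICER_KO library lay below every control, as it did in 9.81% of all genes tested. No member had every DICER_KO library above every control, an arrangement that 10.4% of all genes showed. The median difference was -0.14 over the members and 0.02 over all genes.

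**Figure D1:**
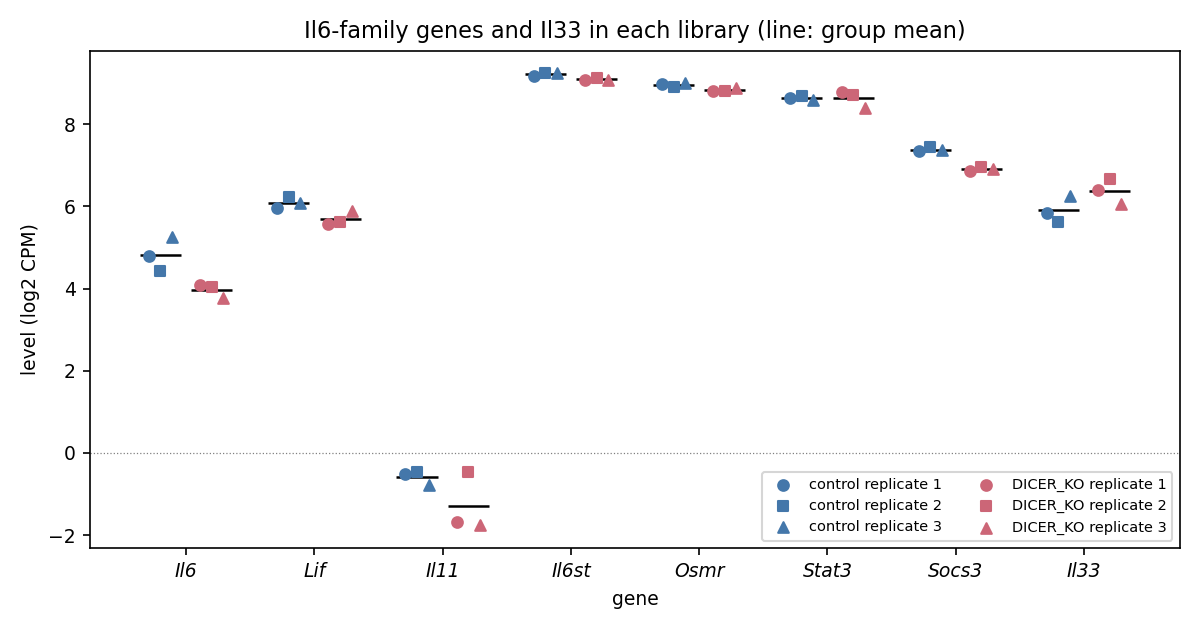
Level of each member (log2 CPM, vertical axis) in each control (blue) and DICER_KO (red) library, with marker shapes for replicates 1 to 3 and a line at each group mean. Il6, Lif, Il6st, Osmr and Socs3 show no overlap between groups, while DICER_KO replicate 3 has the lowest Stat3 and the lowest Il33 of its group.

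Il6, the founding cytokine of the family, showed the largest difference of the 7 tested members. Its level was 4.80, 4.43 and 5.25 log2 CPM in controls 1 to 3, and 4.09, 4.03 and 3.78 log2 CPM in DICER_KO replicates 1 to 3. Every DICER_KO library lay below every control, and the controls were the more spread group, with replicate 3 highest. The mean was 4.83 ± 0.41 in controls and 3.97 ± 0.16 in DICER_KO (SD, n = 3 each), from 488 to 877 reads in the controls and 300 to 582 reads in DICER_KO. The difference of -0.86 (SE 0.19, 95% interval -1.28 to -0.44) is a level of 0.551 times the control mean and did not pass the limma test (adjusted p = 0.0883). It ranked 111th by p among the 10054 genes tested. The difference was -0.77 without DICER_KO replicate 3 and passed (limma adjusted p = 0.00622), although the left-out library had the lowest Il6 of all. Leaving out each library in turn moved the difference between -1.06 and -0.65, the smallest size coming without control replicate 3. Il6 lies at chr5:30013114-30019975.

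Lif encodes leukemia inhibitory factor, which signals through gp130 paired with the receptor Lifr. Its level was 5.95, 6.22 and 6.08 log2 CPM in controls 1 to 3 and 5.57, 5.63 and 5.88 log2 CPM in DICER_KO replicates 1 to 3. The groups did not overlap, but DICER_KO replicate 3 came within the controls' own spread of the lowest control. The difference of -0.39 (SE 0.12, 95% interval -0.66 to -0.12) did not pass with all libraries (limma adjusted p = 0.189). Lif fell by 0.49 on the log2 scale without DICER_KO replicate 3 (limma adjusted p = 0.00511). Lif lies at chr11:4257568-4272514.

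Il11, a fibrosis-associated relative of Il6, was near the limit of detection. It had 16, 16 and 13 reads in the controls and 5, 17 and 12 reads in DICER_KO, and the groups overlapped. When genes of every level entered the fit, its difference was -0.72 (SE 0.43, limma adjusted p = 0.463). Il11 lies at chr7:4772373-4782907.

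Il6st encodes gp130, the signalling subunit that most receptors of the family share. It measured 9.16, 9.24 and 9.24 log2 CPM in controls 1 to 3 and 9.07, 9.12 and 9.08 log2 CPM in DICER_KO replicates 1 to 3. All DICER_KO values were lower, by a smaller margin than in Il6 or Lif. The difference was -0.12 (SE 0.10, 95% interval -0.34 to 0.10, limma adjusted p = 0.535). It was -0.12 again without DICER_KO replicate 3 (adjusted p = 0.392). Il6st lies at chr13:112464070-112506860.

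Osmr encodes the oncostatin M receptor subunit, which pairs with gp130. Its level was 8.98, 8.91 and 9.01 log2 CPM in controls 1 to 3 and 8.82, 8.80 and 8.88 log2 CPM in DICER_KO replicates 1 to 3. The groups lay close together without overlap, and the difference of -0.14 (SE 0.10, 95% interval -0.36 to 0.09) did not pass (limma adjusted p = 0.493). Without DICER_KO replicate 3 the difference was -0.16 (limma adjusted p = 0.239). Osmr lies at chr15:6813568-6874968.

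Stat3, the transcription factor that gp130 receptors activate, did not separate the groups. It measured 8.64, 8.68 and 8.59 log2 CPM in controls 1 to 3 and 8.78, 8.71 and 8.39 log2 CPM in DICER_KO replicates 1 to 3. DICER_KO replicates 1 and 2 lay above every control and replicate 3 below every control. The mean difference was -0.01 (SE 0.12, 95% interval -0.28 to 0.26, limma adjusted p = 0.977). Leaving out DICER_KO replicate 3 gave 0.11, which did not pass there either (adjusted p = 0.415). Message level does not report STAT3 phosphorylation, which was not measured. Stat3 lies at chr11:100886806-100939594, where its exons overlap Stat5a on the opposite strand. The counting is not stated to use strand, so reads from the overlap cannot be assigned to either gene.

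Socs3 encodes the feedback inhibitor that binds gp130 and Janus kinases, and it had the smallest adjusted p of the members. Its level was 7.34, 7.44 and 7.36 log2 CPM in controls 1 to 3 and 6.87, 6.97 and 6.92 log2 CPM in DICER_KO replicates 1 to 3. Both groups were tight (SD 0.05 each) and stood apart by several times that spread, with DICER_KO replicate 3 in the middle of its group. The difference of -0.46 (SE 0.09, 95% interval -0.67 to -0.25), a level of 0.726 times the controls, did not pass with all libraries (limma adjusted p = 0.0718) and ranked 75th by p. The difference had the same size, -0.46, without DICER_KO replicate 3 and passed (limma adjusted p = 0.00314). Over the leave-one-out fits it stayed between -0.49 and -0.43. Socs3 lies at chr11:117966079-117970336.

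Il33 encodes a nuclear cytokine of the IL-1 family that is released from damaged cells and acts on innate lymphoid cells and regulatory T cells in fat. It was the one tested member with a difference above 0. Its level was 5.85, 5.63 and 6.25 log2 CPM in controls 1 to 3 and 6.41, 6.66 and 6.05 log2 CPM in DICER_KO replicates 1 to 3. The groups overlapped, because control replicate 3 was higher than DICER_KO replicate 3. The difference of 0.46 (SE 0.18, 95% interval 0.06 to 0.86) did not pass (limma adjusted p = 0.269). Il33 rose by 0.63 without DICER_KO replicate 3 (limma adjusted p = 0.00714), a change that mature adipocyte markers share in direction in the same libraries, as given below. Il33 lies at chr19:29925113-29960718.

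**Figure D2:**
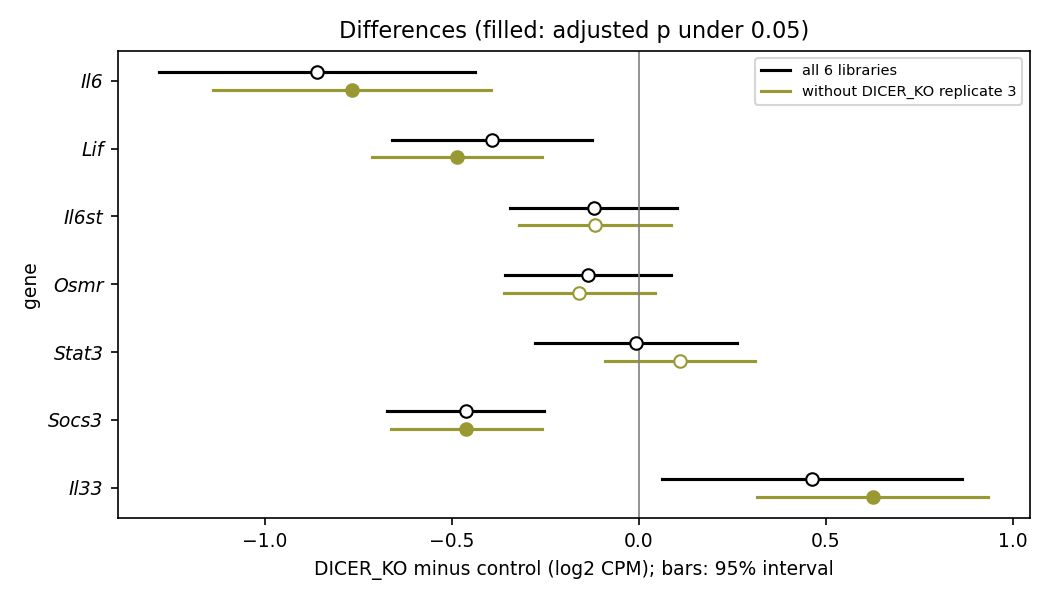
Difference of each tested member (DICER_KO minus control, log2 CPM, horizontal axis) with its 95% interval, with all libraries (black) and without DICER_KO replicate 3 (olive), where filled points have an adjusted p under 0.05. With all libraries no point is filled, and without that library Il6, Lif, Socs3 and Il33 are.

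Levels were compared between genes per kilobase of exon, with the length taken over all GENCODE M21 exons of a gene. Reads may not have been counted over all of these exons. The order of close neighbours, such as Socs3 and Il6st, can therefore depend on the lengths used. In controls Socs3 had the highest mean level, 5.85 log2 CPM per kb, followed by Il6st at 5.74, Stat3 at 5.38 and Osmr at 5.37. Il33 (4.38), Lif (3.96) and Il6 (3.55) came next, and Il11 was last at -1.64 log2 CPM per kb. The neighbours Stat3 and Osmr overlapped in their libraries, as did Lif and Il6, and the other neighbours did not. In DICER_KO the mean level of Il6st (5.62) came before those of Socs3 (5.39), Stat3 (5.38) and Osmr (5.23). The ranges of Socs3 and Stat3 overlapped in this group, as did those of Stat3 and Osmr. The mean levels per kb of the receptor and signalling genes lay above those of the cytokines in both groups. Lif and Il6 overlapped in the controls and did not in DICER_KO.

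**Figure D3:**
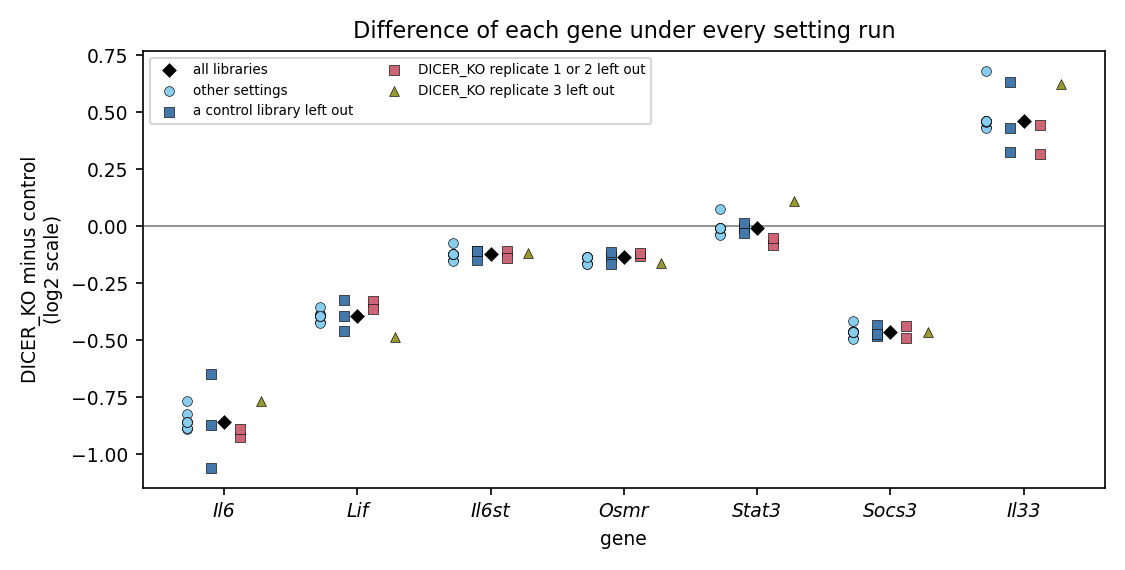
Difference of each tested member (DICER_KO minus control, log2 scale, vertical axis) with all libraries (black diamond), under other settings (light blue), and with one control (blue), DICER_KO replicate 1 or 2 (red) or DICER_KO replicate 3 (olive) left out. Il6, Lif, Il6st, Osmr and Socs3 stay below 0 and Il33 above 0 under every setting run, while Stat3 crosses 0.

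Genes of the pathway were taken from 8 lists that also hold the members, with 111 genes in all, of which 74 were tested. Of these, 1 passed the test, the STAT3 target list's Il4ra. Every DICER_KO library lay below every control in 24 of the 74 and above in 4, arrangements that 9.81% and 10.4% of all genes showed. The median difference was -0.14, against 0.02 over all genes. The 24 include the members Il6, Lif, Il6st, Osmr and Socs3, so these counts are not separate from those of the members.

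Among the ligands, 5 of 12 listed genes were tested, 0 passed and the median difference was -0.39. Of the members on this list, Il6 and Lif fell when DICER_KO replicate 3 was left out. Among the receptors 0 of the 5 tested passed, with a median of -0.12 and no call without that library either. Of the 5 Janus kinases and STATs tested, 0 passed, and all 5 overlapped between groups.

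Of 12 inhibitors of JAK-STAT signalling tested, 0 passed and the median difference was 0.02. Socs3 and Ptpn1, a phosphatase, lay below the controls in every DICER_KO library, as did 9.81% of all genes. Socs4, Pias1 and Ptpn6 lay above the controls in every DICER_KO library, as did 10.4% of all genes. Socs4, another member of the Socs3 family, differed by 0.39 (limma adjusted p = 0.223). Socs3 fell and Socs4 rose without DICER_KO replicate 3, against 7.22% of all genes called lower and 12.5% called higher.

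Of the 21 STAT3 target genes tested, 18 had a difference below 0, as did 4750 of all 10054 genes tested. In 11 of the 21 every DICER_KO library lay below every control, against 9.81% of all genes. The median difference was -0.18. This list includes Socs3, Stat3, Osmr and Il6st, and so is not separate from the members. The exception that passed, Il4ra, encodes the IL-4 receptor alpha chain. It measured 8.27, 8.37 and 8.12 log2 CPM in controls 1 to 3 and 7.29, 7.14 and 7.57 log2 CPM in DICER_KO replicates 1 to 3. Il4ra fell by 0.92 (SE 0.13, limma adjusted p = 0.0132), and by 1.04 without DICER_KO replicate 3. This call was lost without any 1 of the controls (adjusted p 0.0780 to 0.0799), without DICER_KO replicate 2 (0.0507) and without the intensity trend (0.0702). The kinase gene Pim1 differed by -0.44 (limma adjusted p = 0.0923) and the transcription factor gene Fos by -0.48 (adjusted p = 0.201), both without overlap. When DICER_KO replicate 3 was left out, 8 of the 21 fell and 2 rose, Lbp and Hp, which encode acute-phase proteins that adipocytes also express. Over all genes, 7.22% were called lower and 12.5% higher in that fit.

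**Figure D4:**
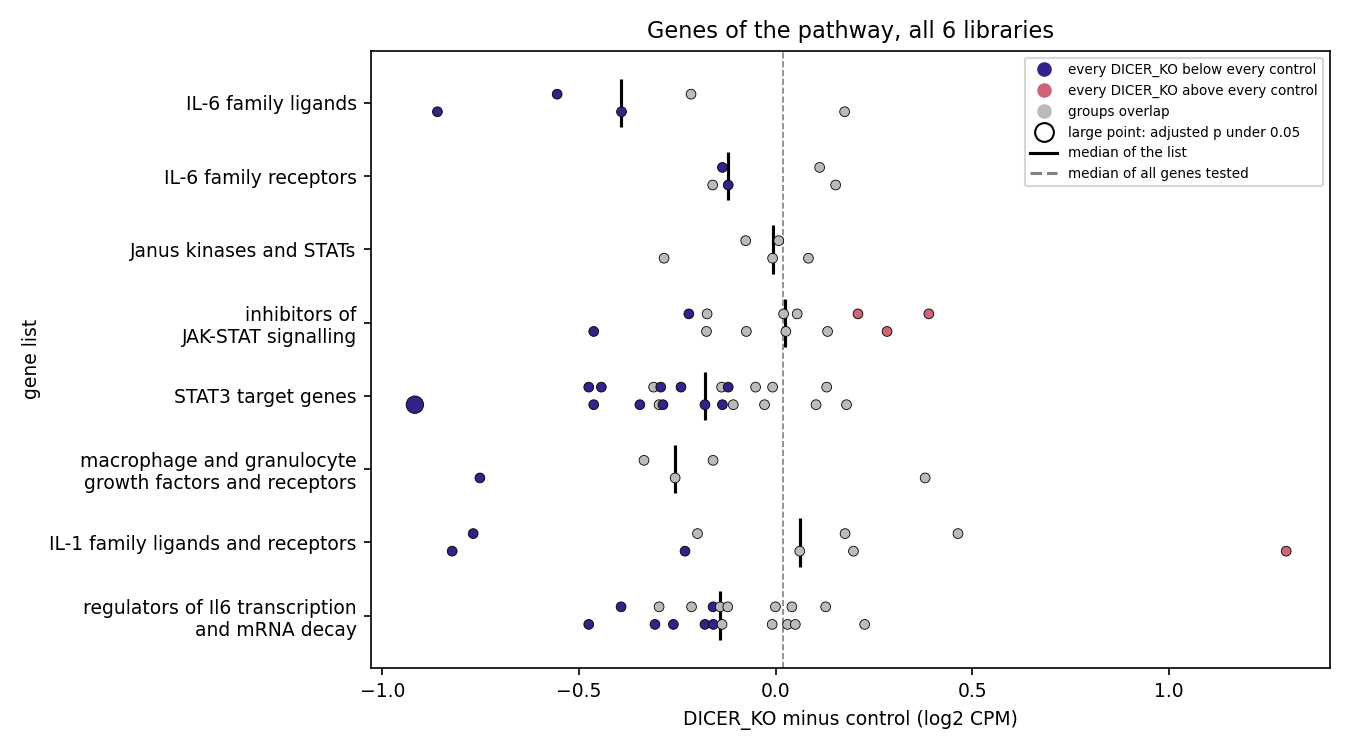
Difference of each tested gene of the 8 pathway lists (DICER_KO minus control, log2 CPM, horizontal axis), coloured by whether the groups separate, with list medians (black lines) and the median of all genes (dashed). Only Il4ra, the large point, passed the test with all libraries.

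Among regulators of Il6 transcription and message decay, 0 of 19 tested passed, with a median difference of -0.14. Against 9.81% of all genes, 7 of the 19 lay below every control in every DICER_KO library. These included the AP-1 gene Jun (-0.39, limma adjusted p = 0.116) and Zc3h12a, which encodes an RNase that degrades the Il6 message (-0.31, adjusted p = 0.264). Without DICER_KO replicate 3, 4 fell, namely Jun, Fos, Nfkbiz and Cebpd, against 7.22% of all genes called lower. Of 9 tested genes of the IL-1 family, which includes Il33, 0 passed. Il1rn, the IL-1 receptor antagonist, was higher in every DICER_KO library (difference 1.30, limma adjusted p = 0.141). The receptor genes Il1r1, Il1r2 and Il18rap were lower in every DICER_KO library, with differences of -0.23, -0.77 and -0.82, and Il1rl1, the receptor for Il33, differed by -0.20 (adjusted p = 0.465). Il33 and Il1rn rose and Il18rap, a subunit of the IL-18 receptor, fell without DICER_KO replicate 3. Of 5 tested growth factors and receptors of the macrophage and granulocyte lineage, 0 passed, and the granulocyte factor Csf3 lay below the controls throughout (-0.75, limma adjusted p = 0.146). Without DICER_KO replicate 3, Csf3 fell by 1.01 (limma adjusted p = 0.00025) and Csf2rb, a receptor subunit gene, rose by 0.65 (adjusted p = 0.0134).

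The 3 tested genes whose levels ran most like Il6 over the 6 libraries were Eif4a2 (Pearson r 0.986), Adgrl2 (0.986) and Cxcl5 (0.984). The 6 points fall into 2 groups that did not overlap in any of the 4 genes, so the correlations describe these libraries only. Cxcl5, a neutrophil chemokine gene, fell by 1.09 (limma adjusted p = 0.0493). It passed under 6 of 16 alternatives, and missed the threshold without control replicate 1 (0.182), control replicate 3 (0.121), DICER_KO replicate 1 (0.0598) or DICER_KO replicate 2 (0.0524).

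Markers of other cells were looked at beside these results. Of the 9 measured macrophage and leukocyte markers, 6 were below 1 CPM in every library (Lyz2, Cx3cr1, Mrc1, Fcgr1, Fcer1g and Spi1). The summed level of all 9 was 34.03 to 38.79 CPM in controls and 38.85 to 40.06 CPM in DICER_KO, higher in every DICER_KO library. Cd68, the highest of the 9, lay above the controls in every DICER_KO library (difference 0.39, limma adjusted p = 0.163) and passed without DICER_KO replicate 3 (0.0334). Of the 3 tested, however, 2 had a difference below 0, and the median was -0.16. Of the 6 measured endothelial markers, 4 were below 1 CPM in every library. The sum of all 6 was 5.73 to 6.55 CPM in controls and 6.93 to 8.98 CPM in DICER_KO. The 2 tested went opposite ways, with a median difference of -0.36. Tek differed by 0.67 (limma adjusted p = 0.118), and the other lay below 0. Without DICER_KO replicate 3, Tek rose and the other fell. Of 18 measured preadipocyte and fibroblast markers, the summed level was 16713 to 19491 CPM in controls and 11854 to 12744 CPM in DICER_KO. Of the 16 tested, 13 had a difference below 0 and 3 above, with a median of -0.19. Only Col3a1 passed, with a fall of 1.44 (limma adjusted p = 0.00856, and 0.0786 without control replicate 3). Without DICER_KO replicate 3, 9 of the 16 lay below 0 and 7 above. In that fit 6 were called lower and 0 higher, against 7.22% and 12.5% of all genes. The part of these markers in the lower Il6, Lif and Socs3 levels was not tested. Fewer cells of a type and less RNA per cell cannot be told apart in bulk libraries. Mature adipocyte markers had a median difference of 0.26 with 0 of 19 called, and 13 lay above 0 and 6 below. In 2 of the 19 every DICER_KO library lay below every control, and in 0 above, against 9.81% and 10.4% of all genes. Without DICER_KO replicate 3, 15 rose and 1 fell, against 12.5% of all genes called higher and 7.22% called lower. The part of these markers in the Il33 difference was not tested. DICER_KO replicate 3, the library low in these markers, had the lowest Il6, Stat3 and Il33 of its group and the highest Lif and Osmr.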

How the data were processed

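Poly(A) libraries of 3 control and 3 DICER_KO samples were sequenced, per the labels. The authors' deposited values are log2 CPM, and their unit was checked on the file: every value corresponds to a whole number of reads within 0.01 (100% of values). HISAT2, featureCounts, Trimmomatic, FastQC and edgeR appear in the submitters' processing notes, with builds mm10 and GRCm38. Their versions are not given in the sources used here. Strand use in counting is not stated. Gene IDs were matched to RefSeq GRCm38.p6 symbols for 13682 of 13734 rows.

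The members and gene lists were chosen with earlier results of these data known. Genes that reached 1 CPM in 3 or more libraries were fitted with limma 3.58.1 (R 4.3.3) with an intensity trend, and p-values were adjusted by Benjamini-Hochberg over all of them. Because the deposited unit is log2 CPM, a count model was not used as the main test. Limma-voom on the recovered reads was an alternative, beside other filters, scalings, variance settings, library weights, the replicate number and each library left out. The scripts were checked on simulated data. Genes named are the members present and, in each list, those past the threshold, up to 3 others with the largest difference and separate groups, and the highest per length. Dicer1 and the 3 genes most correlated with Il6 are also named, and a few others were chosen after their values were seen. For 1 gene under the rule, no result is given here. 3′ UTRs are the longest of the principal transcripts in GENCODE M21. Python 3.11.15, numpy 2.4.6, pandas 2.3.3 and matplotlib 3.10.9 did the remaining steps.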

Additional observations from a re-analysis of the deposited data

How the results depend on the processing

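Over the 16 alternatives, Il6, Lif, Il6st, Osmr and Socs3 kept a difference below 0 and Il33 above 0. Il6, Lif, Socs3 and Il33 each passed the test under 2 alternatives only, library quality weights and the fit without DICER_KO replicate 3, and the adjusted p ranged from 0.000130 to 0.270 for Il6 and from 0.000257 to 0.290 for Socs3. The number of members past the threshold was 0 with all libraries, 4 with library quality weights and 0 to 4 when each library was left out in turn. The number of all genes past it was 44, and became 19 without the intensity trend, 70 with robust variances, 4484 with quality weights and 1 to 1983 when each library was left out (1983 without DICER_KO replicate 3, 1 without control replicate 3). Deviations of same-numbered libraries from their group means correlated with r 0.195, -0.0142 and -0.0786, and the other pairs gave -0.227 to 0.166. With 3 libraries per group, this cannot exclude that the numbers pair the samples. The fit with the replicate block called 2 genes and 0 members. The quality weights ran from 0.203 (DICER_KO replicate 3) to 7.54 (control replicate 1), and their estimation did not reach its tolerance. Stat3 changed sign, to 0.078 with quality weights and between -0.083 and 0.11 when a library was left out. Hp was 0.56 with quality weights and -0.47 to 0.70 when a library was left out, and Fabp4 was -0.057 to 0.90. Of the 16 alternatives, Il4ra passed under 10, Cxcl5 under 6, Col3a1 under 14 and Dicer1 under 9, each with a difference below 0 in all. The replicate block ended each of these 4 calls (adjusted p 0.109 for Col3a1, 0.119 for Dicer1, 0.152 for Il4ra and 0.211 for Cxcl5). The cause of these changes was not tested.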
